A study of Mus musculus with 15 samples.

Results

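FpB6D2 is a parthenogenetic mouse embryonic stem (ES) cell line that came from oocytes grown to maturity inside cultured ovarian follicles, and it was set here against NmB6D2, a line from naturally fertilised embryos. Of the 15 arrays of the series, the 6 arrays of these lines were chosen by their titles, 3 of FpB6D2 and 3 of NmB6D2, and autosomal genes were compared between them. Preantral follicles of 2-week-old B6D2F1 females, which have a C57BL6 mother and a DBA2 father, were cultured, and the oocytes were activated without sperm to give FpB6D2. NmB6D2 came from C57BL6 females in oestrus mated with DBA2 males. The remaining 9 arrays hold 3 further ES lines with 3 arrays each, and they entered the same fit. OpB6D2 is parthenogenetic from naturally ovulated oocytes of B6D2F1 mice, FpB6CBA is parthenogenetic from follicle-grown oocytes of B6CBAF1 mice (C57BL6 mother, CBA/ca father), and R1 is a purchased line from a cross of 129S1/SvImJ and 129X1/SvJ. Each line is taken here as a single derivation, because the labels do not say that its arrays came from separate derivations or cultures. A p-value here therefore covers only how far the arrays of a line differ, which may be technical. Mode of origin, sex, genotype and line cannot be told apart: a B6D2F1 oocyte carries a recombined chromosome set, and NmB6D2 carried a Y chromosome.

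ES cells are pluripotent cells taken from the blastocyst, the embryo just before implantation. A parthenogenetic line has no chromosome from a father, so imprinted genes that are read from the paternal copy lack their usual template, and genes read from the maternal copy may have both copies active. Mouse ES cells move between a naive state, like the inner cell mass, and a primed state, like the epiblast after implantation, and they can also take on features of trophectoderm, the epithelium around the blastocyst. Their glycolysis and their response to low oxygen both respond to the hypoxia-inducible factors (HIF), which are marked for destruction by prolyl hydroxylases when oxygen is plentiful.

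RNA was hybridised to Affymetrix mouse arrays, and each value is a log2 intensity of a probe set, a group of short probes for 1 transcript. A gene was represented by its brightest probe set and was tested where 3 or more arrays reached 3.864, the median over the whole table. The 8 ES cell markers checked, among them Pou5f1, Sox2 and Zfp42, were expressed in both lines, with a mean log2 value of 11.11 in FpB6D2 and 10.76 in NmB6D2, and none was called different. The Y-linked translation factor gene Eif2s3y had 3.04, 2.61 and 2.70 on the FpB6D2 arrays, against 8.65, 8.78 and 8.41 on the NmB6D2 arrays. Arrays of FpB6D2 correlated with each other at 0.996 to 0.9964 and arrays of NmB6D2 at 0.9976 to 0.9978, while arrays of the different lines correlated at 0.9491 to 0.9523. Genes, not replicates, are the points of these correlations. Tested genes had a median of 6.66 to 6.70 on FpB6D2 arrays and 6.70 to 6.72 on NmB6D2 arrays.

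Feeder fibroblasts are often cultured under ES cells, and their markers were looked at first. Of 31 tested genes in the fibroblast list, 7 were called higher and 0 lower in FpB6D2 (22.6% called). Over all autosomal genes tested, 4.58% were called higher and 5.6% lower. The list mean lay between 7.45 and 7.57 on the FpB6D2 arrays and between 6.95 and 7.09 on the NmB6D2 arrays. The chemokine gene Ccl2 had 8.25, 8.14 and 8.41 in FpB6D2, against 5.43, 5.59 and 5.61 in NmB6D2, a 6.60-fold higher level. S100a4 (log2 difference 1.65 ± 0.08 SE), the surface glycoprotein gene Thy1 (1.22 ± 0.14), Twist2 (1.15 ± 0.14), Col6a1 (1.12 ± 0.14), Col6a2 (1.02 ± 0.08) and Ccn2 (1.02 ± 0.08) were the other higher genes. The fibrillar collagen genes were nearly level: Col1a1 averaged 7.05 in FpB6D2 and 7.12 in NmB6D2 (-0.08 ± 0.18), Col1a2 7.68 and 7.87, and Col3a1 5.49 and 5.56. The calls of Ccn2 and Col6a2 rested on single arrays: without NmB6D2 replicate 2 their differences were 0.98 and 0.99, and without NmB6D2 replicate 3 that of Col6a2 was 0.97 (0.92 averaged over its probe sets), each under the 2-fold minimum. In bulk RNA, fewer cells of a type and less RNA per cell cannot be told apart, and the part of fibroblasts in the other results was not tested. 

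Between FpB6D2 and NmB6D2, 1257 of 12345 autosomal genes tested were called, which is 10.2%. A gene was called when limma's adjusted p was under 0.05 over all 12813 genes tested and the difference was at least 2-fold. In FpB6D2, 566 genes (4.58%) were higher and 691 (5.6%) lower. The list counts below are to be read against these shares. The median difference of all autosomal genes was 0.02 on the log2 scale, and 90% of genes lay between -1.05 and 0.97. The SD between arrays of a line had a median of 0.09 in FpB6D2 and 0.07 in NmB6D2, so a 2-fold difference was far outside the array spread of most genes. The 3 arrays of each line did not overlap for any of the 1257 called genes, which is read against 68.3% of all autosomal genes tested for which they did not. At least 4-fold differences were found for 80 higher and 82 lower genes. Calls were spread over all 19 autosomes, from 8.63% of genes on chromosome 5 to 12.7% on chromosome 7, where 78 genes were higher and 53 lower. On the X chromosome, which is not described further, 101 of 414 genes were higher and 14 lower, with a median of 0.44.

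**Figure D1:**
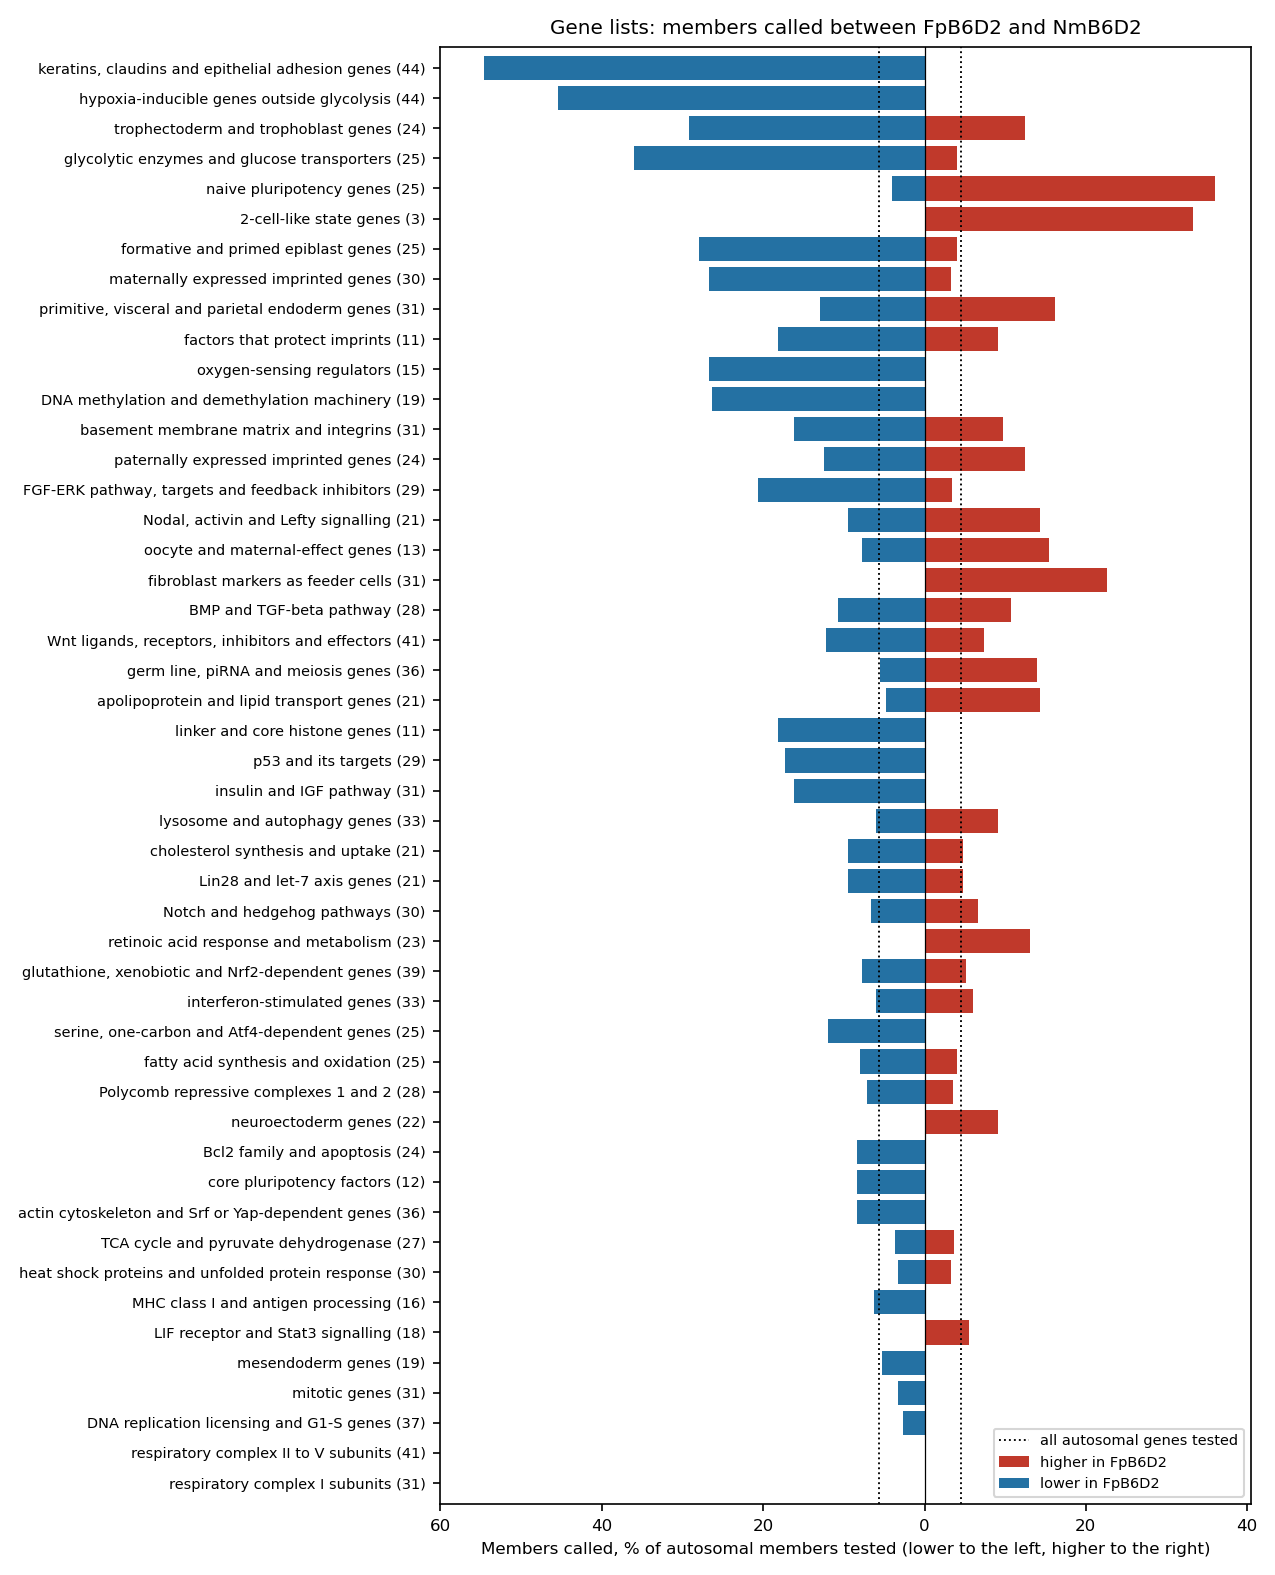
Share of the tested autosomal members of each gene list that was called between FpB6D2 and NmB6D2, with members lower in FpB6D2 drawn to the left in blue, members higher in FpB6D2 to the right in red, and the number tested in brackets. Dotted lines give the shares over all autosomal genes, 4.58% higher and 5.6% lower. Keratins, claudins and epithelial adhesion genes (24 of 44 lower) and hypoxia-inducible genes (20 of 44 lower) extend farthest to the left, and naive pluripotency genes (9 of 25 higher) farthest to the right.

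The largest autosomal rises in FpB6D2 were those of Pramel6 and Pramel7, neighbouring genes on chromosome 2 whose products favour the naive state. Pramel6 had 8.33, 8.34 and 8.43 in FpB6D2, against 2.60, 2.51 and 2.81 in NmB6D2. NmB6D2 lay below the filter value on every array, so the level in FpB6D2 was at least 22.7-fold higher. Pramel7 had 7.58, 7.79 and 7.85 in FpB6D2 and 3.09, 2.91 and 3.04 in NmB6D2, at least 14.7-fold higher. Both values come from probe sets with an ID that marks possible matches to more than 1 transcript, called shared probe sets from here on, and the other probe sets rose by less (Pramel6 1.41 ± 0.08, Pramel7 2.10 ± 0.08). Averaging the probe sets of Pramel6 gave 3.57.

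Msc, which encodes a basic helix-loop-helix repressor, had 8.20, 8.27 and 7.99 in FpB6D2 and 4.31, 3.97 and 4.19 in NmB6D2, a 15.9-fold higher level (4.00 ± 0.12, adjusted p = 6.2e-12 by limma). Ereg, the gene of the EGF receptor ligand epiregulin, had 7.06, 6.71 and 7.18 in FpB6D2, against 3.19, 3.48 and 3.25 in NmB6D2, at least 8.68-fold higher. For both genes the lowest FpB6D2 array was far above the highest NmB6D2 array. The selective autophagy receptor gene Calcoco2 was 17.6-fold higher and Myo1f, an unconventional myosin gene, 11.4-fold higher (2.24 on the log2 scale without shared probe sets). Other large rises were those of the adhesion genes Clmp (10.1-fold) and Jam2 (9.95-fold), the interferon-responsive gene Xaf1 (9.39-fold), thrombomodulin (Thbd, 8.96-fold), the Ras-family GTPase gene Mras (8.67-fold) and the chemokine gene Cxcl14 (at least 7.48-fold). Averaging all probe sets of a gene lowered the rise of Xaf1 to 1.72 and that of Cxcl14 to 1.82 on the log2 scale.

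Calml4, a calmodulin-like gene, had 6.35, 6.32 and 6.06 in FpB6D2, against 9.48, 9.46 and 9.49 in NmB6D2, a 9.42-fold lower level. Prtg, which encodes the cell surface protein protogenin, was 9.07-fold lower, the ubiquitin ligase gene G2e3 8.53-fold lower and Cdcp1, the gene of a transmembrane Src substrate, 8.01-fold lower. The iron exporter gene Slc40a1 had 4.53, 4.56 and 4.44 in FpB6D2 and 7.31, 7.28 and 7.38 in NmB6D2, a 7.03-fold lower level. The actin-bundling gene Espn (at least 6.46-fold), Tmem54 (at least 5.03-fold) and Gna14 (at least 3.79-fold), a G protein subunit gene (-1.44 averaged over probe sets), were close to background in FpB6D2. Galnt3, which starts mucin-type glycosylation, had at least a 4.95-fold fall on its brightest probe set but -0.97 as the average of its probe sets, which is under 2-fold.

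Genes that HIF activates in low oxygen were lower in FpB6D2. Of 44 genes in the hypoxia-inducible list, 20 fell and 0 rose, and their median difference was -0.94, against 0.02 over all autosomal genes. This list shares Pgm1 with the glycolysis list, and in both together 28 of 68 genes were lower and 1 higher. Glycolysis, the pathway from glucose to pyruvate, went the same way, with 9 of 25 genes lower, 1 higher and a median of -0.65. Taking the mean over the probe sets of each gene gave 15 hypoxia-inducible and 8 glycolysis genes called lower. Aldoc (-0.91) and Pgm1 (-0.73) lost their glycolysis calls in this way. The count of 8 therefore includes a member that was not called on its brightest probe set.

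The hypoxia-inducible genes that fell most are given first. Their arrays did not overlap between the lines, which held for all 1257 called genes and for 68.3% of all autosomal genes tested. Ndrg1, a stress-response gene, had 7.16, 7.13 and 6.96 in FpB6D2, against 10.11, 10.04 and 10.17 in NmB6D2, an 8.13-fold lower level (-3.02 ± 0.09 SE, adjusted p = 6.5e-12 by limma). Adm, the gene of the vasodilator peptide adrenomedullin, had 6.36, 6.36 and 6.12 in FpB6D2 and 8.99, 8.88 and 8.87 in NmB6D2, a 6.21-fold lower level. Ero1a, which forms disulphide bonds in the endoplasmic reticulum, had 8.76, 8.74 and 8.60 in FpB6D2, against 11.32, 11.25 and 11.38 in NmB6D2, 6.14-fold lower. In each of these genes the 3 arrays of a line lay within 0.3 of each other, while the lines were more than 2 log2 units apart.

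Pdk1, the kinase that shuts pyruvate dehydrogenase and keeps pyruvate out of the mitochondria, had 7.98, 7.87 and 7.97 in FpB6D2 and 10.43, 10.49 and 10.48 in NmB6D2, a 5.76-fold lower level (-2.53 ± 0.05). Bnip3, a mitophagy receptor gene, had 9.59, 9.61 and 9.67 in FpB6D2, against 11.94, 11.83 and 11.93 in NmB6D2, 4.83-fold lower. Both genes were lower on every FpB6D2 array, as was every gene called lower. The prolyl hydroxylases that mark HIF for destruction are themselves HIF targets. Egln1 had 6.84, 6.90 and 6.51 in FpB6D2 and 9.20, 9.20 and 9.33 in NmB6D2 (5.62-fold lower), and Egln3 was 4.75-fold lower. Egln2, the member of this enzyme family that hypoxia does not induce, averaged 8.81 in FpB6D2 and 7.83 in NmB6D2, a difference of 0.98 ± 0.06 that missed the 2-fold minimum except without NmB6D2 replicate 3 (1.02).

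The remaining lower genes of the list cover several branches of the response. Ddit4, an inhibitor of mTORC1, was 3.31-fold lower, Bhlhe40, a repressor of the clock, 2.77-fold lower, and Ankrd37 3.34-fold lower. Collagen modification was represented by the prolyl hydroxylase gene P4ha1 (2.64-fold lower) and the lysyl hydroxylase gene Plod2 (3.09-fold lower). In glycogen metabolism the branching enzyme gene Gbe1 was lower by at least 2.38-fold, and Pgm1 was 2.51-fold lower. Zfp395 (-1.80 ± 0.12) and Selenbp1 (-1.62 ± 0.11) also fell. Pgm1, Narf, Stc1, Anxa2 and Ppp1r3c passed the 2-fold minimum on their brightest probe set but not when all probe sets were averaged (-0.73, -0.87, -0.57, -0.52 and -0.70), and Stc1 stood at -0.94 without FpB6D2 replicate 3. Of the brightest members that were not called, Mif differed by -0.37 ± 0.04, the transferrin receptor gene Tfrc by -0.73 ± 0.05 and Higd1a by -0.35 ± 0.07.

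The oxygen-sensing regulators were looked at next. Hif1a, the subunit that oxygen controls, averaged 9.66 ± 0.09 in FpB6D2 and 9.61 ± 0.06 in NmB6D2 (SD, n = 3 each; difference 0.05 ± 0.06 SE) on its brightest probe set. Its 3 other probe sets above the filter ran from -0.90 to 0.59, so no direction is given for it. Its relative Epas1, also called HIF2A in human, was 0.88 lower on the log2 scale (-0.88 ± 0.08) on its brightest probe set, short of the 2-fold minimum. The other probe set of Epas1 above the filter differed by -0.14. Of 15 regulators, 0 were higher and 4 lower, with a median of -0.05. These were Egln1 and Egln3 with Hif3a (-1.08 ± 0.11) and Arnt (-1.01 ± 0.08), the constant partner of the HIF subunits. The calls of Hif3a and Arnt rested on NmB6D2 replicate 2, without which they stood at -0.98 and -0.96. The other probe set of Hif3a above the filter differed by -0.02, while the others of Arnt differed by -1.29 and -1.1 and were called lower too. The averages over all probe sets were -0.35 for Hif3a and -0.84 for Arnt.

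In glycolysis the glucose transporters and several enzymes were not called on their brightest probe sets. Slc2a1 averaged 12.03 in FpB6D2 and 12.84 in NmB6D2 (-0.81 ± 0.06), Slc2a3 differed by -0.29 ± 0.05, Pkm by -0.74 ± 0.05 and Aldoa by -0.46 ± 0.05, and none reached 2-fold. Other probe sets of the transporters did, with differences down to -1.40 for Slc2a1 (1 called lower) and -1.49 for Slc2a3 (2 called lower). Eno2, an enolase of neurons and hypoxic cells, had 3.84, 3.79 and 3.83 in FpB6D2, against 7.27, 7.22 and 7.19 in NmB6D2, at least 10.3-fold lower. Slc16a3, the lactate exporter of glycolytic cells, had 7.10, 6.51 and 6.49 in FpB6D2 and 9.75, 9.65 and 9.83 in NmB6D2, 8.25-fold lower (-3.04 ± 0.14). Both genes were low on all FpB6D2 arrays, with replicate 1 somewhat higher for Slc16a3.

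Pfkfb3, which makes the sugar phosphate that switches on phosphofructokinase, was 5.04-fold lower, or -1.33 on the log2 scale averaged over probe sets. Hexokinase 1 (Hk1) was 3.05-fold lower, the liver-type phosphofructokinase gene Pfkl 3.09-fold, Tpi1 2.40-fold and the muscle-type enolase gene Eno3 3.67-fold lower. Aldoc was 3.95-fold lower, but stood at -0.91 when all its probe sets were averaged. The opposite change was that of Ldhb, the lactate dehydrogenase subunit that favours lactate use, which had 10.22, 10.23 and 10.21 in FpB6D2, against 7.64, 7.83 and 7.73 in NmB6D2, a 5.6-fold higher level (2.49 ± 0.06).

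**Figure D2:**
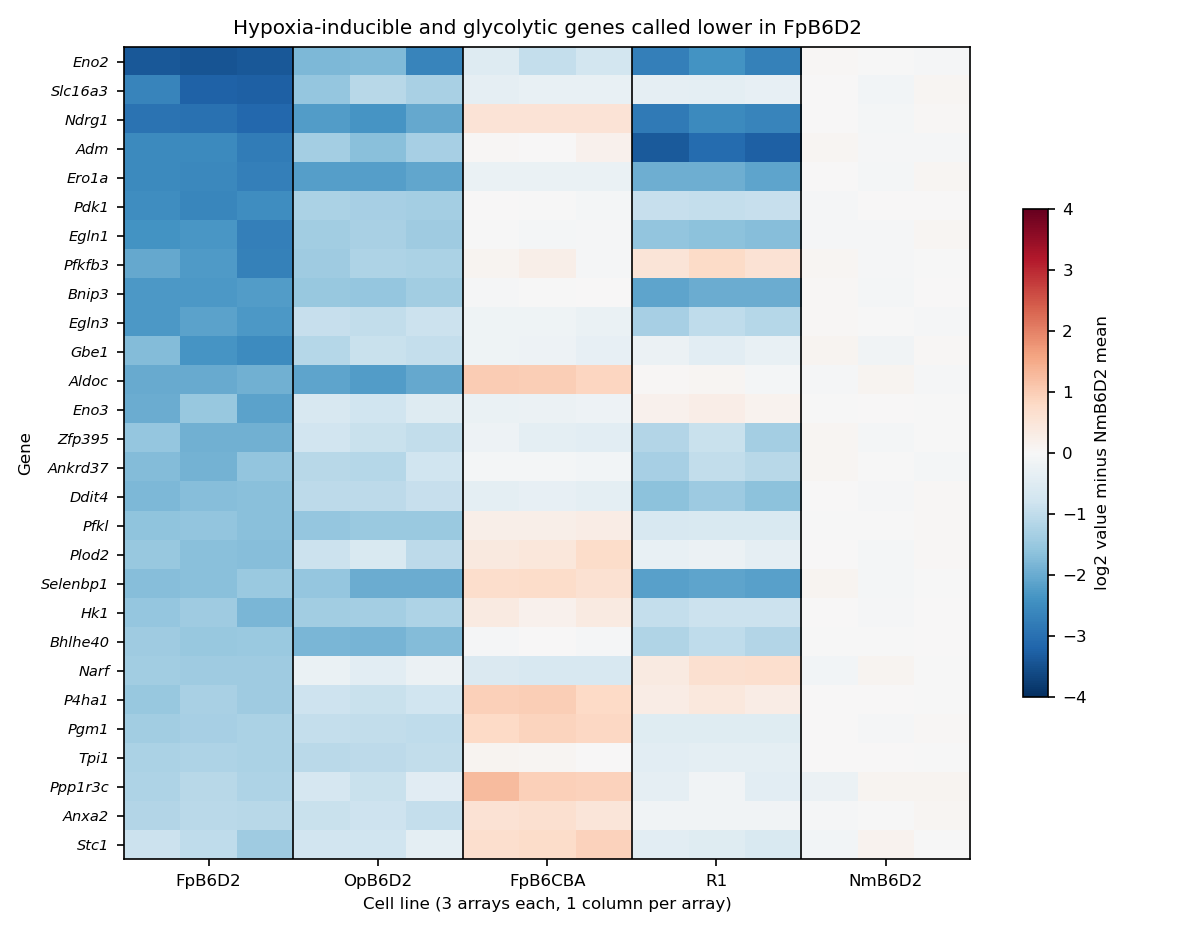
Hypoxia-inducible and glycolytic genes called lower in FpB6D2, drawn as the log2 value on each of the 15 arrays minus the NmB6D2 mean of the gene, with 1 column per array in the order FpB6D2, OpB6D2, FpB6CBA, R1 and NmB6D2. Blue marks values below the NmB6D2 mean and red values above it. Every gene is below the NmB6D2 mean on the 3 FpB6D2 arrays, as holds for any gene called lower. Ndrg1 is below it by 3.02 on average. FpB6CBA is close to NmB6D2 for most of the genes drawn.

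The promoters of the 5 hypoxia-inducible genes that fell most among those with a listed promoter are shown for the letters that HIF binds. Ndrg1 had no listed promoter. HIF recognises DNA with the core ACGTG or GCGTG, and these letters or their reverse complements CACGT and CACGC are in capitals. Each stretch holds 100 bases of the 250 before the start of transcription, read 5′ to 3′ on the strand of the gene from RefSeq (GRCm38.p6). The listed promoter with the most cores was taken, and the 100 bases were placed to hold as many cores as possible. Adm lies at chr7:110627537-110627636 (+), Ero1a at chr14:45318616-45318715 (-), Pdk1 at chr2:71873098-71873197 (+), Egln1 at chr8:124949300-124949399 (-) and Bnip3 at chr7:138909531-138909630 (-).
Adm: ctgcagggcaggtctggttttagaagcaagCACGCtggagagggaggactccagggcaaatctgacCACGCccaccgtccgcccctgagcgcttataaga
Ero1a: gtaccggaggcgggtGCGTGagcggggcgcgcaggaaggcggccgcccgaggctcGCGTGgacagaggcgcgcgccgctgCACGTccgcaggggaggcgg
Pdk1: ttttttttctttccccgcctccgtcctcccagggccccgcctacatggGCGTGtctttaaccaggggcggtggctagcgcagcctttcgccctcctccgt
Egln1: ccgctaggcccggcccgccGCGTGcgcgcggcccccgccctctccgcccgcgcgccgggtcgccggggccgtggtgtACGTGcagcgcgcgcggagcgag
Bnip3: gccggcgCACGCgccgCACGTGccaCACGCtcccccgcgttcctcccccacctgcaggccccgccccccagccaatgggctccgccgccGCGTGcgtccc
Counting overlapping matches, the windows hold 2, 3, 1, 2 and 5 cores in this order. Such cores are short and common in GC-rich promoters. The 250 bases upstream held at least 1 of them in 38.6% of all 32851 listed promoters. A gene was counted where any of its listed promoters held 1, which gave 60.5% of the 9936 autosomal tested genes with an entry. Among hypoxia-inducible and glycolysis genes the share was 87.0% (20 of 23) for those called lower and 86.1% (31 of 36) for the rest. A match says nothing on whether HIF was bound there.

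Genes of epithelial cell junctions formed the list with the largest share of calls. Keratins are the filaments of epithelia, claudins seal tight junctions, and desmosomes rivet neighbouring cells together. Of 44 genes, 24 fell and 0 rose in FpB6D2, with a median of -1.19. They included 4 of 6 claudins, 4 of 5 keratins and 3 of 7 desmosomal genes. The list mean lay between 6.10 and 6.16 on the FpB6D2 arrays and between 7.46 and 7.50 on the NmB6D2 arrays.

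Cldn6 had 5.27, 5.44 and 5.30 in FpB6D2, against 8.89, 9.11 and 9.05 in NmB6D2, a 12.8-fold lower level (-3.68 ± 0.08, adjusted p = 3.1e-13 by limma). Cldn7 was 11.9-fold, Cldn4 4.50-fold and Cldn3 3.27-fold lower. Ocln, the gene of the tight junction protein occludin, had 3.82, 3.82 and 3.79 in FpB6D2, at the filter value, and 5.92, 6.14 and 5.88 in NmB6D2, at least 4.33-fold lower. The tight junction scaffold gene Tjp3 was 4.32-fold lower, whereas Tjp1, its widely expressed relative, differed by -0.82 ± 0.08 and was not called. Cgn fell on its brightest probe set (-1.92 ± 0.12) and stood at -0.97 with all probe sets averaged.

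The 4 keratin genes called were lower on every FpB6D2 array, as was every gene called lower. Krt8 had 9.25, 9.24 and 9.18 in FpB6D2, against 11.18, 11.17 and 11.36 in NmB6D2 (4.04-fold lower), and its partner Krt18 was 3.97-fold lower. Krt7 was 6.35-fold and Krt19 5.69-fold lower. Krt8 stayed far above the filter value in FpB6D2.

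E-cadherin (Cdh1), the adhesion protein that holds ES cell colonies together, had 9.28, 9.26 and 9.23 in FpB6D2 and 10.93, 10.90 and 10.84 in NmB6D2, 3.11-fold lower (-1.64 ± 0.06). Epcam, another adhesion gene of ES cells and epithelia, had 8.52, 8.41 and 8.33 in FpB6D2, against 10.79, 10.77 and 10.76 in NmB6D2, 5.11-fold lower (-1.45 averaged). Neither gene overlapped between the lines, which was so for all 1257 called genes. The desmosome genes Dsp (4.52-fold), Pkp2 (4.28-fold, -1.24 averaged) and Dsc2 (at least 2.91-fold) were lower.

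Regulators and trafficking genes of epithelia were lower as well. The splicing regulators that epithelial cells use, Esrp1 and Esrp2, differed by -2.48 ± 0.15 and -1.31 ± 0.12, the second at -0.83 when probe sets were averaged. Prss8, a channel-activating protease gene, was 6.32-fold lower and Ap1m2, a subunit of the adaptor that sorts proteins to the basolateral membrane, 5.27-fold lower. The polarity gene Pard6b was 2.49-fold lower and Marveld2, a tight junction gene, differed by -1.37. Crb3 and Ovol2 were called by narrow margins (-1.07 ± 0.15 and -1.04 ± 0.16), and fell under 2-fold without FpB6D2 replicate 3 (Crb3, -0.89) or FpB6D2 replicate 1 (Ovol2, -0.92).

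**Figure D3:**
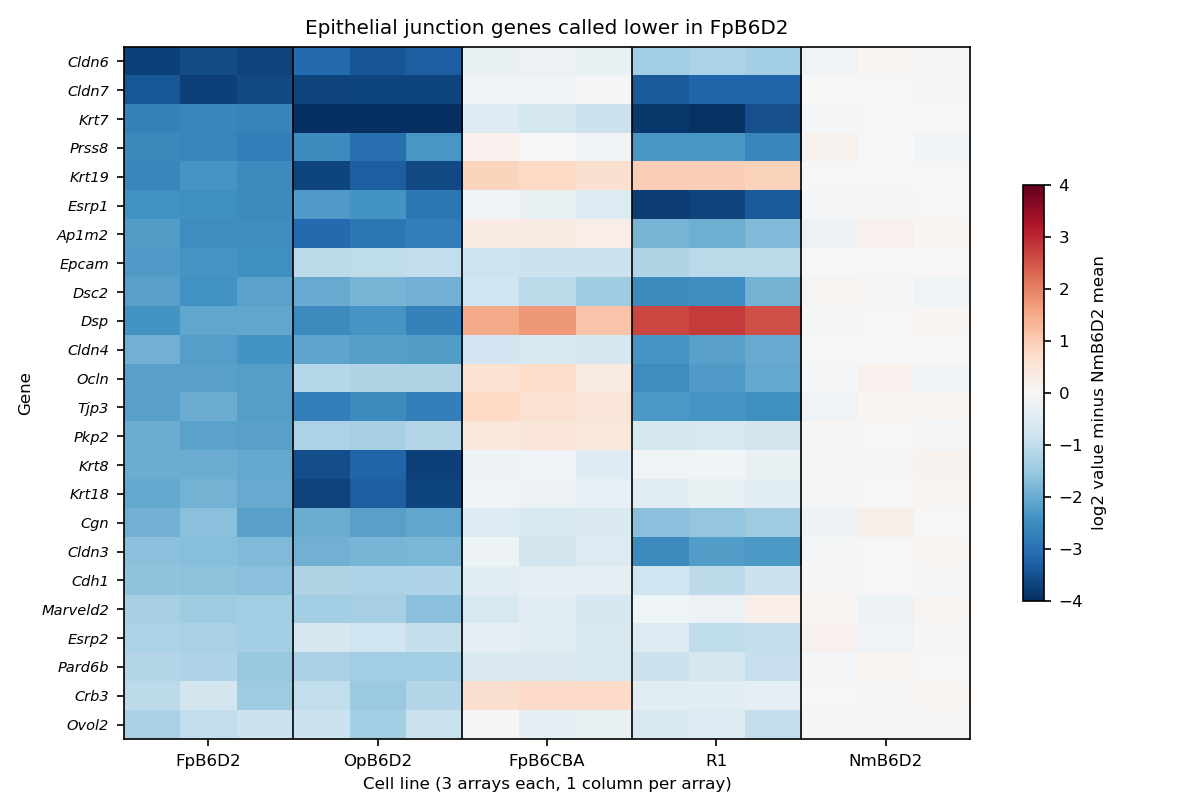
Epithelial junction genes called lower in FpB6D2, drawn as the log2 value on each array minus the NmB6D2 mean of the gene, with the lines in the order FpB6D2, OpB6D2, FpB6CBA, R1 and NmB6D2. Blue is below and red above the NmB6D2 mean. All 24 genes are below it on the FpB6D2 arrays, as holds for any gene called lower. Krt8 and Krt18 are lower still in OpB6D2.

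Trophectoderm genes share keratins with this list. Of 24 trophectoderm and trophoblast genes, 3 were higher and 7 lower in FpB6D2, and without the keratins 3 were higher and 3 lower of 20, with a median of -0.11. Elf5, a trophoblast transcription factor gene, had 3.74, 3.27 and 3.21 in FpB6D2, against 7.06, 6.75 and 7.05 in NmB6D2, at least 8.51-fold lower. Hand1, which directs giant cell formation, was 3.39-fold lower. Cdx2, the defining trophectoderm factor, averaged 4.19 in FpB6D2 and 4.17 in NmB6D2, Eomes 7.29 and 7.49, and Gata3 4.95 and 4.56, and none of these was called. The water channel gene Aqp3 was 5.86-fold higher (1.65 on the log2 scale averaged), Ptges 2.06-fold higher and Tead4 3.06-fold higher, but Tead4 rose by 0.71 without shared probe sets and Ptges by 0.83 with all probe sets averaged. The part of trophoblast-like cells in the keratin values was not tested.

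Naive pluripotency genes were higher in FpB6D2. Of 25 tested, 9 rose and 1 fell, and their median was 0.68. The list mean ran from 9.18 to 9.25 on the FpB6D2 arrays and from 8.28 to 8.31 on the NmB6D2 arrays.

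Tcl1, a co-activator of the kinase Akt, had 9.30, 9.35 and 9.35 in FpB6D2, against 5.41, 5.62 and 5.55 in NmB6D2, a 14-fold higher level (3.81 ± 0.07, adjusted p = 8.5e-14 by limma). Tbx3, a T-box factor that sustains Nanog, had 9.45, 9.36 and 9.41 in FpB6D2 and 5.87, 5.63 and 6.15 in NmB6D2, 11.5-fold higher. Averaging its probe sets gave 1.76 on the log2 scale in place of 3.52. Prdm14, which represses DNA methyltransferases and FGF signalling in naive cells, had 8.06, 7.95 and 8.12 in FpB6D2, against 5.84, 5.59 and 5.73 in NmB6D2, 5.00-fold higher (2.32 ± 0.11). All 3 genes were high on every FpB6D2 array.

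Jam2, given above, is also in this list. Klf4, a reprogramming factor, was 2.84-fold higher, Fbxo15 2.80-fold and Pecam1 2.93-fold. Ooep, a maternal-effect gene that ES cells keep expressing, was 2.69-fold, and the transposon silencer gene Morc1 2.51-fold higher. Nanog averaged 11.39 ± 0.08 in FpB6D2 and 10.43 ± 0.06 in NmB6D2 (SD, n = 3 each), a difference of 0.97 ± 0.06 SE just under the 2-fold minimum, which it passed without FpB6D2 replicate 2 (1.01). Esrrb was 0.77 ± 0.05 and Klf5 0.43 ± 0.07 higher on the log2 scale, and neither was called. The naive gene that fell was Khdc3, a maternal-effect factor (-1.24 ± 0.09).

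Most core factors were not called. Pou5f1 averaged 12.01 in FpB6D2 and 11.46 in NmB6D2 (0.55 ± 0.06), Sox2 11.08 and 10.96 (0.13 ± 0.07), and Sall4 10.65 and 10.21 (0.44 ± 0.05). A second probe set of Sall4 differed by -0.96, so its direction is not given. Utf1 differed by -0.62 ± 0.05 and Tdgf1, the Nodal co-receptor gene, by -0.79 ± 0.07. Of the 12 core factors, 1 was called, Lin28a, an RNA-binding protein that blocks let-7 microRNA maturation. It had 7.24, 7.19 and 6.80 in FpB6D2, against 9.85, 9.92 and 9.83 in NmB6D2, a 6.91-fold lower level (-2.79 ± 0.10). Dppa2 averaged 10.75 in FpB6D2 and 10.32 in NmB6D2 on its brightest probe set, while its other probe set had 4.38 in FpB6D2 and 10.24 in NmB6D2, so no direction is given for it.

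Around Lin28a, the let-7 axis genes did not move together: of 21 tested, 1 was higher and 2 lower, with a median of -0.01. Hmga2, a let-7 target that encodes a chromatin protein, averaged 8.80 in FpB6D2 and 7.32 in NmB6D2, 2.78-fold higher, but 0.95 on the log2 scale with probe sets averaged. The orphan nuclear receptor gene Nr6a1, with Lin28a the other lower gene, was 2.17-fold lower (-0.91 averaged). Mycn differed by 0.48 ± 0.06 and Igf2bp1 by -0.68 ± 0.07.

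Formative and primed epiblast genes tended to be lower. Of 25, 7 were lower and 1 higher with a median of -0.47, but Krt8, Krt18 and Cldn6 are shared with the epithelial list, and without them 4 of 22 were lower and 1 higher, with a median of -0.23. Pou3f1, an epiblast POU factor, was 2.43-fold lower, and Lef1, a Wnt effector induced on exit from the naive state, had 6.0, 5.89 and 5.89 in FpB6D2 and 7.70, 7.60 and 7.71 in NmB6D2, 3.34-fold lower. Dnmt3b and Dnmt3a, which belong here too, are described with DNA methylation. Foxd3 was the higher gene (3.53-fold). Otx2 averaged 7.42 in FpB6D2 and 7.23 in NmB6D2 and was not called.

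DNA methylation genes were lower where they differed. Of 19 enzymes and cofactors of methylation and demethylation, 5 were called lower and 0 higher, with a median of -0.30. Dnmt3b, a de novo methyltransferase, had 9.07, 9.17 and 9.03 in FpB6D2, against 10.67, 10.72 and 10.66 in NmB6D2, 3.02-fold lower (-1.59 ± 0.05). Dnmt3a, its relative, was 2.20-fold lower and Tet1, which oxidises methylcytosine, 2.45-fold lower. Apobec1, a cytosine deaminase gene, was 2.88-fold lower. The catalytically inactive partner Dnmt3l differed by -0.81 ± 0.06 and Uhrf1, which brings the maintenance enzyme to replicated DNA, by -0.74 ± 0.06, both below the 2-fold minimum, although the other probe set of Uhrf1 (-1.22) was called lower. The last called gene, Smchd1, a silencer of imprinted clusters and the X chromosome, differed by -1.04 ± 0.09. Its call ended with probe sets averaged (-0.67), without FpB6D2 replicate 2 (-0.97) and without NmB6D2 replicate 3 (-1.0, just under the minimum).

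Polycomb genes, which place repressive histone marks, did not follow. Of 28, 1 was higher and 2 lower, with a median of 0.09. Mtf2, a Polycomb recruitment factor, was 1.04 ± 0.06 higher on the log2 scale, Ezh1 1.41 lower (-1.41 ± 0.12) and Phc3 lower by 1.15 (-1.15 ± 0.10). With all probe sets averaged neither Mtf2 (0.53) nor Ezh1 (-0.62) reached 2-fold. Eed differed by 0.20 ± 0.06 and Jarid2 by 0.10 ± 0.06. Of 11 factors that protect imprints, 1 was higher, and Smchd1 and Khdc3 were the 2 lower ones. The higher one was Zfp57, which holds methylation at imprinted control regions and averaged 8.85 in FpB6D2 and 7.84 in NmB6D2 (1.01 ± 0.15), which dropped under 2-fold on leaving out replicate 1 of FpB6D2 (0.94), replicate 2 of FpB6D2 (0.98) or replicate 3 of NmB6D2 (0.98). Its partner Trim28 differed by 0.58 ± 0.06.

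Imprinted genes moved both ways. Of 24 tested genes with an expressed paternal copy, 3 were higher, 3 lower and 18 not called in FpB6D2, with a median of 0.28. Another 6 did not reach the filter value.

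Igf2, the fetal growth factor gene on chromosome 7, had 5.48, 6.17 and 6.03 in FpB6D2, against 9.74, 9.68 and 9.79 in NmB6D2, 14.3-fold lower (-3.84 ± 0.16, adjusted p = 1.1e-10 by limma). Sfmbt2, a Polycomb-related gene of placental lineages on chromosome 2, had 5.17, 5.05 and 4.94 in FpB6D2 and 8.79, 8.87 and 8.85 in NmB6D2, 13.8-fold lower. Averaged over probe sets, the differences were -2.07 for Igf2 and -2.19 for Sfmbt2. Nnat, the gene of the membrane protein neuronatin, was the other lower gene, with 6.44, 6.67 and 6.15 in FpB6D2 and 8.66, 8.73 and 8.73 in NmB6D2, 4.87-fold lower.

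Genes of the paternal list were also higher in the line with no paternal chromosome. Ndn, a Prader-Willi region gene on chromosome 7, had 8.69, 8.82 and 8.77 in FpB6D2, against 6.42, 6.49 and 6.32 in NmB6D2, 5.09-fold higher (1.43 on the log2 scale averaged). Plagl1, a zinc finger regulator of an imprinted network, was 5.59-fold higher on its brightest probe set but 0.90 on the log2 scale with all probe sets averaged, and Impact 2.24-fold and 0.73. Mest (0.81 ± 0.09), Mcts2 (0.78 ± 0.05), Dlk1 (0.77 ± 0.10), Peg3 (0.70 ± 0.11) and Snrpn (0.58 ± 0.12) differed in the same direction below the 2-fold minimum. Slc38a4 (-0.76 ± 0.06), Peg10 (-0.75 ± 0.27) and Gab1 (-0.65 ± 0.07) differed in the other.

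Of 30 tested genes with an expressed maternal copy, 1 was higher and 8 lower, with a median of -0.11. Grb10, an adaptor that restrains insulin and IGF receptors, had 8.66, 8.66 and 8.75 in FpB6D2, against 11.06, 11.11 and 11.17 in NmB6D2, 5.36-fold lower (-2.42 ± 0.08). Phlda2, a brake on placental growth, had 6.41, 6.32 and 6.48 in FpB6D2 and 8.14, 8.06 and 8.15 in NmB6D2, 3.28-fold lower, and its neighbour Cdkn1c, a cell cycle inhibitor, was 2.79-fold lower. In both cases all FpB6D2 arrays were below all NmB6D2 arrays, as for every gene called lower.

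The non-coding RNAs Meg3 and Rian of chromosome 12 were 2.98-fold and 2.56-fold lower, and Ppp1r9a was 2.34-fold lower. With all probe sets averaged these stood at -0.79, -0.83 and -0.61, short of 2-fold. Igf2r, which clears IGF2, differed by -1.09 ± 0.11 (-0.93 averaged), and Dhcr7, the last enzyme of cholesterol synthesis, by -1.16 ± 0.06. The higher gene was Cobl, an actin nucleator (1.13 ± 0.14). Kcnq1 differed by -0.01 ± 0.11 and Ube3a by 0.03 ± 0.08, with other probe sets of Ube3a down to -0.54, and Ascl2, a trophoblast factor, differed by -0.85 ± 0.16.

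**Figure D4:**
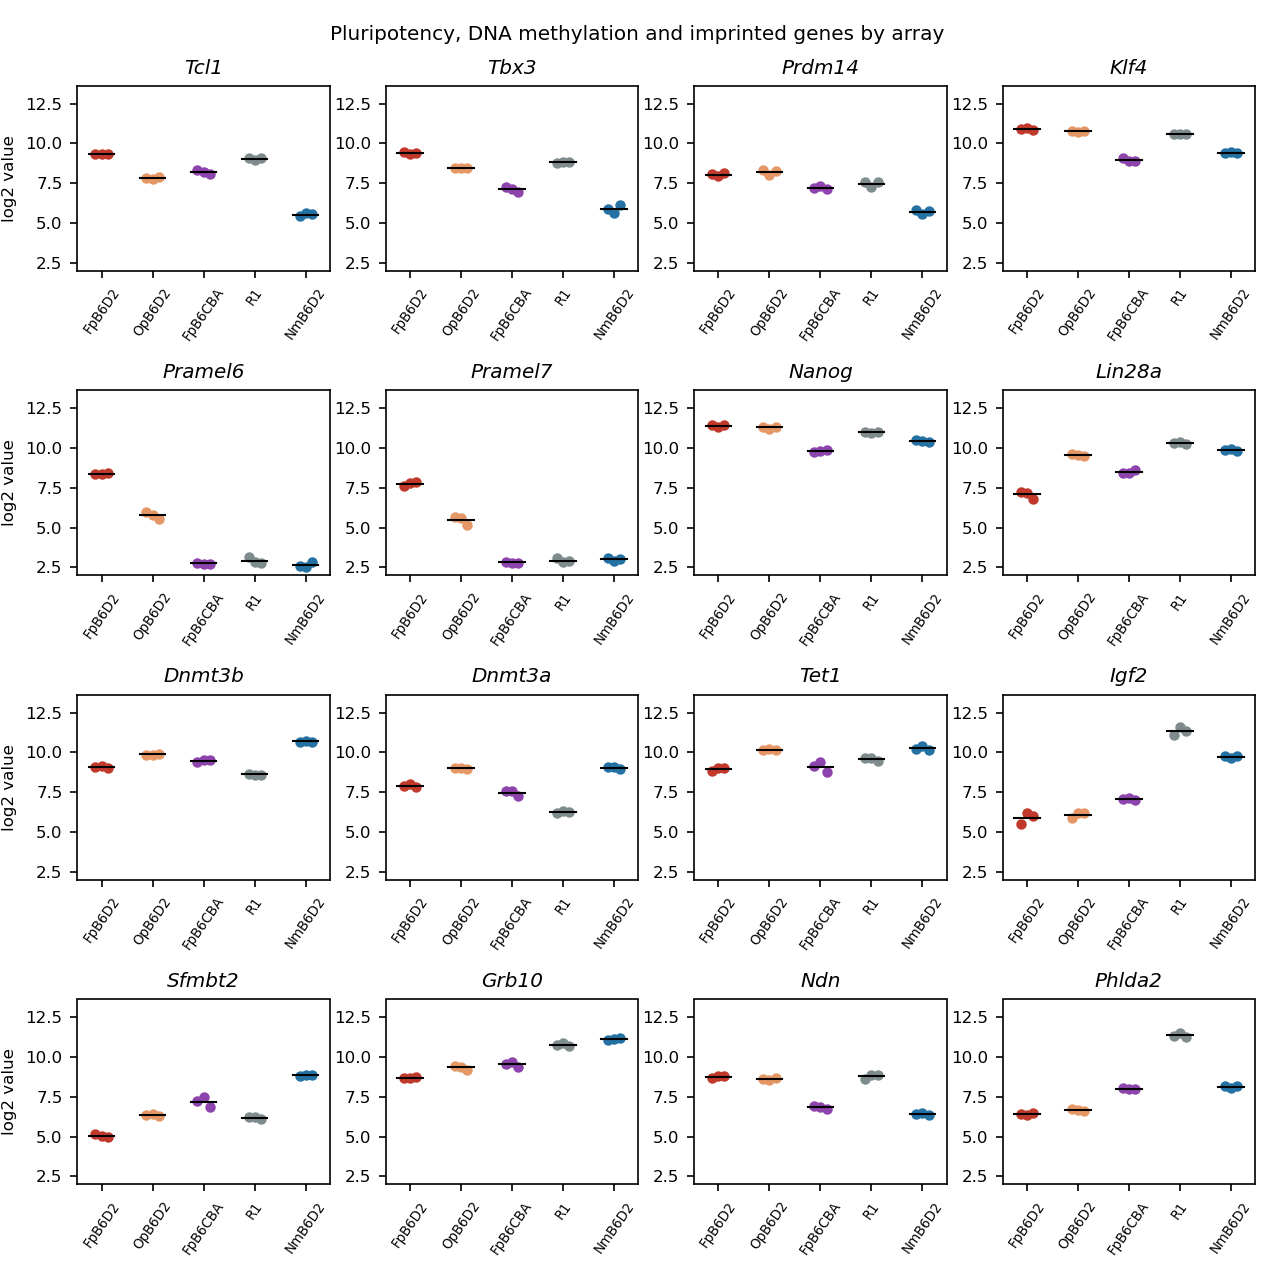
Log2 values of 16 pluripotency, DNA methylation and imprinted genes on each array, with the lines FpB6D2, OpB6D2, FpB6CBA, R1 and NmB6D2 from left to right, 1 point per array and a bar at the line mean. Pramel6 and Pramel7 are high in FpB6D2 (means 8.37 and 7.74), intermediate in OpB6D2 and near background in the other lines, and Lin28a is lowest in FpB6D2 at 7.08.

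Signalling genes were counted by pathway. In the Nodal and activin group, 3 of 21 genes were higher and 2 lower, with a median of -0.32. Inhbb, an activin subunit, had 9.38, 9.49 and 9.46 in FpB6D2, against 6.88, 6.99 and 6.82 in NmB6D2, 5.82-fold higher (1.63 on the log2 scale averaged), and the ligand gene Gdf3 was 2.78-fold higher. Foxh1, the DNA-binding partner of Smad2, had 6.36, 6.46 and 6.48 in FpB6D2 and 8.36, 8.41 and 8.52 in NmB6D2, 4.00-fold lower, though -1.04 without shared probe sets. Skil, a feedback repressor of Smads, was 2.92-fold lower (-1.02 averaged). Inhba was 3.41-fold higher on its brightest probe set and 0.91 on the log2 scale when averaged. Nodal itself averaged 9.55 in FpB6D2 and 9.21 in NmB6D2 (0.34 ± 0.06).

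In the FGF-ERK pathway 1 of 29 genes was higher and 6 lower, with a median of -0.04. The ERK phosphatase gene Dusp6 was 2.78-fold lower, the receptor gene Fgfr3 2.98-fold, the kinase gene Braf 3.01-fold, the early response gene Ier3 2.91-fold and Fos 2.14-fold lower. Sos1 was called on its brightest probe set (-1.38 ± 0.10) but not with all averaged (-0.35). Fosl1 was 1.44 ± 0.12 higher, and 0.96 averaged. The ERK targets Etv4 (-0.50 ± 0.06) and Etv5 (-0.47 ± 0.07) missed the 2-fold minimum, and the ligand gene Fgf4 differed by 0.45 ± 0.06 on its brightest probe set and by -0.18 to 0.48 on others.

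Of 41 Wnt genes, 3 were higher and 5 lower, with a median of 0.05. The higher ones encode secreted proteins: Notum, an enzyme that inactivates Wnt ligands, with 7.11, 7.20 and 7.11 in FpB6D2, against 5.44, 5.50 and 5.42 in NmB6D2 (3.23-fold), the Dickkopf-like gene Dkkl1 (3.01-fold) and the secreted antagonist gene Sfrp1 (2.24-fold, or 1.76 averaged on the log2 scale). Lef1 was the lower gene with the largest difference. Lgr4, a receptor of R-spondins (-1.41 ± 0.06), Fzd7 (-1.30 ± 0.09), Lrp5 (-1.13 ± 0.15) and Fzd2 (-1.01 ± 0.16) were lower receptor genes. Lgr4, Fzd7 and Fzd2 missed 2-fold when probe sets were averaged (-0.74, -0.61 and -0.80), and Fzd2 also without FpB6D2 replicate 3 (-0.79) or NmB6D2 replicate 4 (-0.98). Ctnnb1, the gene of beta-catenin, averaged 12.08 in FpB6D2 and 12.07 in NmB6D2, and its other probe sets differed by -0.24 to 0.29.

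In the BMP and TGF-beta list 3 of 28 genes were higher and 3 lower. The Id genes, BMP targets that hold back differentiation, split: Id3 was 2.37-fold and Id4 2.90-fold higher, Id2 2.98-fold lower and Id1 level (0.01 ± 0.06). Tgfbr3 was 2.62-fold higher and Bmpr2 2.50-fold lower, but with probe sets averaged Id2 (-0.89), Tgfbr3 (0.78) and Bmpr2 (-0.36) did not pass. Bmp8b was lower (-1.11 ± 0.14), except without FpB6D2 replicate 1 (-0.96). In the insulin and IGF list 0 of 31 genes were higher and 5 lower: Igf2, Grb10, Igf2r, the receptor gene Igf1r (-1.08 ± 0.13) and the transcription factor gene Foxo1 (-1.16 ± 0.11). Averaging probe sets took Igf1r to -0.54 and Foxo1 to -0.93, and Igf1r stood at -0.99 without FpB6D2 replicate 1.

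Of 23 genes of retinoic acid response, 3 rose and 0 fell: the binding protein gene Crabp1 (3.62-fold), the homeobox gene Meis2 (at least 2.56-fold, 0.93 averaged on the log2 scale) and Rbp4 (at least 2.23-fold), with a list median of 0.01. Notch and hedgehog genes gave 2 higher and 2 lower of 30, with 1 higher on leaving out FpB6D2 replicate 2 or NmB6D2 replicate 4, where the hedgehog effector gene Gli2 (1.01 ± 0.11) stood at 0.94. Hes1, a Notch target, was 2.24-fold higher while the receptor gene Notch3 was 2.41-fold lower (-0.92 without shared probe sets), and the hedgehog receptor gene Ptch1 was lower by 1.46 (-0.62 averaged). Of 18 genes of LIF and Stat3 signalling, on which mouse ES cells depend in culture, 1 was higher, Bcl3 (2.20-fold), and 0 lower, with a median of 0.06, and the feedback target Socs3 differed by 0.05 ± 0.08 on its brightest probe set and by down to -0.61 on others.

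Germ line genes gave more higher than lower calls, 5 and 2 of 36, with a median of 0.09. Dazl, an RNA-binding protein of germ cells, had 9.66, 9.59 and 9.36 in FpB6D2, against 6.45, 6.59 and 6.45 in NmB6D2, 8.23-fold higher (3.04 ± 0.08). The receptor kinase gene Kit, needed by germ cells and oocytes, had 7.67, 7.68 and 7.66 in FpB6D2 and 5.51, 5.66 and 5.61 in NmB6D2, 4.22-fold higher. The piRNA pathway gene Gtsf1 was 3.39-fold and the transcription factor gene Sohlh2 2.64-fold higher. The fifth was Prdm14, given above. Ddx4, the Vasa helicase gene, was 2.95-fold lower, and Tdrd12 differed by -1.06 ± 0.10 (-0.98 without NmB6D2 replicate 3).

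Among oocyte and maternal-effect genes 2 of 13 were higher, Ooep and Zfp57, and 1 lower, Khdc3, and 15 further members, among them Bmp15, Zp2 and Nobox, did not reach the filter value. Gdf9, an oocyte growth factor gene, averaged 4.89 in FpB6D2 and 4.81 in NmB6D2. The 2-cell-like state, a rare ES cell state with genes of the early cleavage embryo, had 3 tested genes. Usp17la of that set was 9.66-fold higher, with 7.74, 7.54 and 7.65 in FpB6D2 and 4.10, 4.63 and 4.38 in NmB6D2. It belongs to a family of near-identical copies that the probes may not separate. Zfp352 averaged 3.91 in FpB6D2 and 3.71 in NmB6D2, and 6 other genes of the set, Tcstv1 and Duxf3 among them, did not reach the filter value.

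Lineage genes gave few calls with a shared direction. Of 31 genes of primitive, visceral and parietal endoderm, 5 were higher and 4 lower, with a median of -0.03. Sox7, a transcription factor of extra-embryonic endoderm, had 6.58, 6.62 and 6.55 in FpB6D2, against 4.45, 4.40 and 4.50 in NmB6D2, 4.39-fold higher (1.21 on the log2 scale averaged), and Apoc2, an apolipoprotein gene, had 9.55, 9.41 and 9.55 in FpB6D2 and 7.01, 6.81 and 6.96 in NmB6D2, 5.98-fold higher. Lrp2 and Cubn, which together take up proteins in visceral endoderm, were lower instead (3.80-fold, -1.09 averaged, and 2.46-fold), with Serpinh1 (2.85-fold). The defining factors Gata4 (3.95 and 4.51), Gata6 (5.12 and 5.39) and Sox17 (4.52 and 4.27; means in FpB6D2 and NmB6D2) were low in both lines and not called.

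In the mesendoderm list 0 of 19 genes were higher and 1 lower, Hand1, and Mixl1 averaged 3.60 in FpB6D2 and 3.42 in NmB6D2. In the neuroectoderm list 2 of 22 were higher: the adhesion gene Ncam1 (1.53 ± 0.14, but 0.52 averaged) and Sox1, which was near background in both lines and stood at 0.98 without FpB6D2 replicate 1 and at 0.72 averaged. Tubb3, a neuronal tubulin gene, differed by 0.95 ± 0.07 and Nes by -0.20 ± 0.08.

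Basement membrane and integrin genes gave 3 higher and 5 lower of 31, and 0 higher and 3 lower with probe sets averaged. The higher genes were Nid1 (1.12, 0.80 averaged), the hyaluronan receptor gene Cd44 (1.22, 0.64 averaged) and Lama3. Itga3, a laminin receptor gene of epithelia, had 6.5, 6.5 and 6.41 in FpB6D2 and 8.37, 8.52 and 8.75 in NmB6D2, 4.20-fold lower, with the proteoglycan gene Sdc4 (2.76-fold), Mmp9 (2.75-fold) and Itga1 (at least 2.10-fold). The laminin genes Lama5 (-1.37 ± 0.09) and Lama3 (1.37 ± 0.12) differed in opposite directions and missed 2-fold with probe sets averaged (-0.76 and 0.70). Of 36 actin cytoskeleton genes, 0 were higher and 3 lower, among them Wwtr1, a Hippo pathway co-activator (2.17-fold), and Anxa3 (2.11-fold).

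Respiratory chain genes gave no call. Of 72 subunits of complexes I to V, 0 were higher and 0 lower, with a median of 0.19, 0.26 for the 31 genes of complex I and 0.15 for the 41 of the other complexes. At an adjusted p under 0.05 without the fold minimum, 21 complex I subunits were higher and 0 lower, and 22 of the others higher and 5 lower, against 60.0% of all autosomal genes passing in either direction. Cox5b averaged 12.80 in FpB6D2 and 12.51 in NmB6D2 and Ndufv2 11.66 and 11.35. In the list of the TCA cycle and pyruvate dehydrogenase, 1 of 27 genes was higher, pyruvate carboxylase (Pcx, 2.47-fold). The 1 lower gene was Pdk1, the pyruvate dehydrogenase kinase given above.

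Lipid and redox genes changed individually. Of 25 genes of fatty acid synthesis and oxidation, 1 was higher and 2 lower, with a median of -0.18. Scd2, a fatty acid desaturase gene, had 8.92, 8.83 and 8.83 in FpB6D2, against 10.82, 10.86 and 10.78 in NmB6D2, 3.88-fold lower, and the acyl-CoA synthetase gene Acsl5 was 4.56-fold lower. The fatty acid carrier gene Fabp5 was 3.30-fold higher. In cholesterol synthesis and uptake 1 of 21 genes was higher and 2 lower, Dhcr7 and the sterol carrier gene Stard4 (2.85-fold), and the cholesterol exporter gene Abca1 was higher on its brightest probe set only (1.29 ± 0.23, 0.77 averaged). Of 39 glutathione and other redox genes, 2 were higher and 3 lower, with a median of -0.06. Txnip, which senses glucose and binds thioredoxin, had 9.11, 9.23 and 9.14 in FpB6D2 and 11.12, 11.20 and 11.03 in NmB6D2, 3.89-fold lower. The glutathione peroxidase gene Gpx2 was 3.20-fold lower. Gsta3 (1.42 ± 0.19) and Mgst1 (1.08 ± 0.17) were higher on their brightest probe sets. Averaged, they stood just under the minimum at 1.0 and at 0.55, and Mgst1 stood at 0.97 without FpB6D2 replicate 3.

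In serine and one-carbon metabolism 0 of 25 genes were higher and 3 lower, with a median of -0.40. Gldc, the glycine decarboxylase gene, had 8.36, 8.42 and 8.33 in FpB6D2 and 10.19, 10.18 and 10.19 in NmB6D2, 3.52-fold lower. The cystine and amino acid carrier genes Slc7a11 (-1.31 ± 0.13) and Slc7a5 (-1.03 ± 0.07) were the others, and Slc7a11 stood at -0.81 when probe sets were averaged. Atf4, the regulator of this programme, differed by 0.65 ± 0.05.

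Cell cycle genes were almost level. Of 31 mitotic genes, 0 were higher and 1 lower (Cenpf, 2.45-fold), with a median of -0.02, and of 37 replication and G1-S genes 0 were higher and 1 lower, with a median of -0.04. That gene was Cdkn1b, the cyclin-dependent kinase inhibitor p27, with 6.0, 5.87 and 5.88 in FpB6D2 and 7.83, 8.05 and 7.70 in NmB6D2, 3.84-fold lower (-1.05 averaged). Of 29 p53 targets and regulators, 0 were higher and 5 lower, but the classic targets Cdkn1a (-0.10 ± 0.08) and Ccng1 (0.50 ± 0.05) were not called. Ccng2, an atypical cyclin gene, was 4.28-fold lower, and Ddb2, a DNA repair gene, 2.14-fold. Mdm4 depended on its probe set (-1.55 ± 0.14, but -0.44 averaged and -0.04 without shared probe sets). Polk was called at -1.0 ± 0.11, at the minimum, a call that ended on leaving out replicate 1 (-0.98) or 3 (-0.97) of FpB6D2 or replicate 3 of NmB6D2 (-0.96), and averaged (-0.46).

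Lysosomal and autophagy genes gave 3 higher and 2 lower of 33, with a median of 0.21. Manba, the gene of lysosomal beta-mannosidase, had 10.56, 10.53 and 10.65 in FpB6D2 and 8.12, 7.97 and 8.04 in NmB6D2, 5.81-fold higher, and Glb1, beta-galactosidase, was 2.07-fold higher. Ctsc (-1.90 ± 0.07) and Neu1 (-1.67 ± 0.08) were lower on their brightest probe sets, and at -0.70 and -0.51 with all averaged. Of 33 interferon-stimulated genes 2 were higher, Xaf1 and Oas1a, and 2 lower, Gbp2 and Stat2. Stat2 (-1.05 ± 0.15) lost its call without FpB6D2 replicate 1 (-0.95), without NmB6D2 replicate 3 or 4 (-0.99 each) and averaged (-0.80), which left 1 lower gene. Of 16 MHC class I and antigen processing genes 0 were higher and 1 lower, with a median of -0.36. That gene, H2-K1, had 6.47, 6.52 and 6.5 in FpB6D2 and 7.5, 7.52 and 7.48 in NmB6D2, a difference of -1.0 ± 0.07 that fell under 2-fold without FpB6D2 replicate 1 or NmB6D2 replicate 3 (-0.99 each) and averaged (-0.55). Of 30 heat shock and unfolded protein response genes 1 was higher and 1 lower, and of 24 apoptosis genes 0 were higher and 2 lower.

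The levels in the other lines were set beside those of FpB6D2 and NmB6D2. These comparisons share the FpB6D2 arrays, so they are given side by side and are not independent of each other. The mean of the 44 hypoxia-inducible genes was 7.54 in FpB6D2, 7.82 in OpB6D2, 8.70 in FpB6CBA, 8.01 in R1 and 8.54 in NmB6D2. FpB6CBA also came from follicle-grown oocytes, but of another hybrid strain. The ranges over the arrays of FpB6D2 and FpB6CBA were 7.51 to 7.56 and 8.67 to 8.72. The part of oocyte origin or strain in these means was not tested. The 44 epithelial genes averaged 6.14 in FpB6D2, 6.06 in OpB6D2, 7.41 in FpB6CBA, 6.62 in R1 and 7.48 in NmB6D2. Naive genes ran from 9.21 in FpB6D2 and 9.09 in OpB6D2 to 8.70 in FpB6CBA, 8.81 in R1 and 8.30 in NmB6D2.

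**Figure D5:**
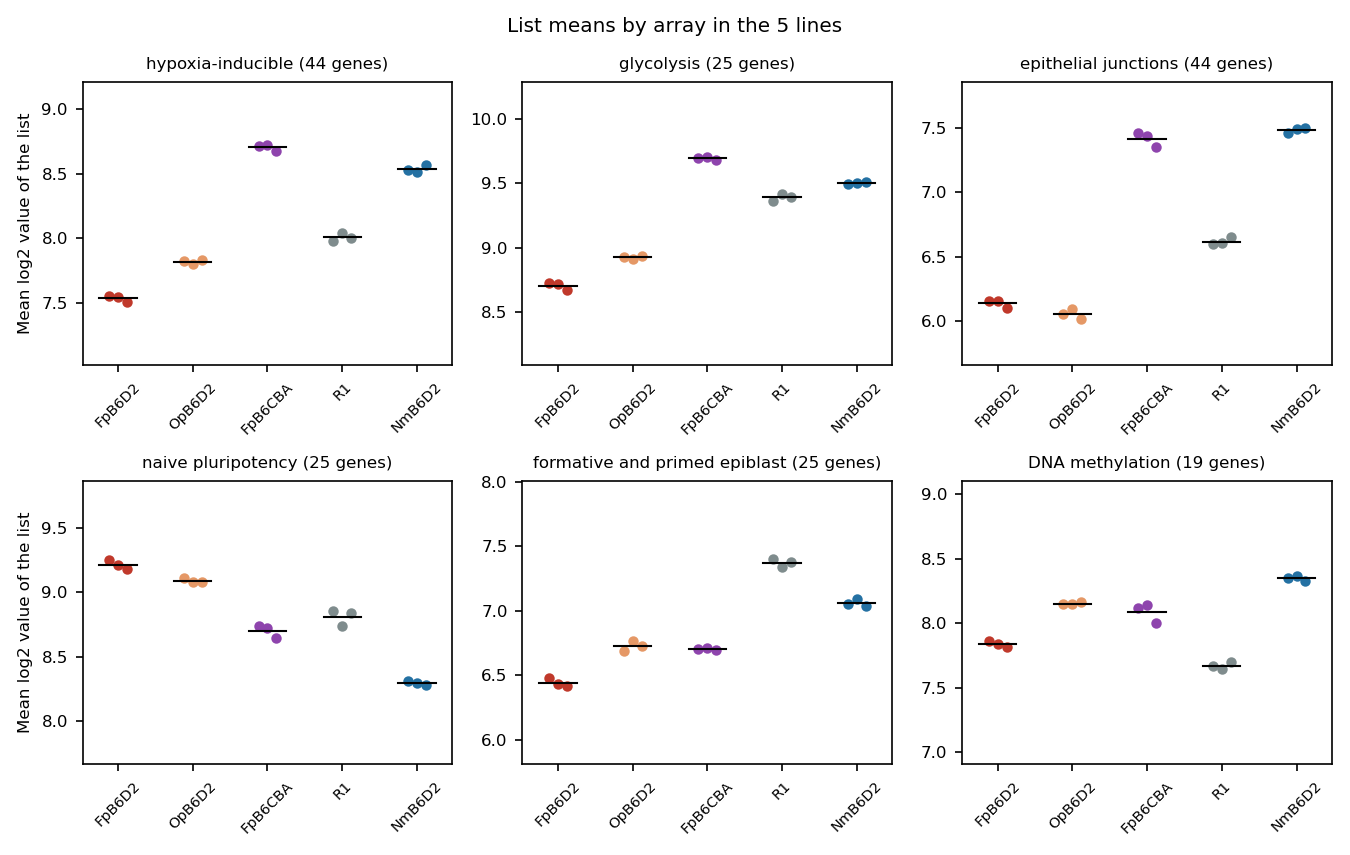
Mean log2 value of the tested autosomal genes of 6 lists on each array, with 1 point per array and a bar at the line mean, in the order FpB6D2, OpB6D2, FpB6CBA, R1 and NmB6D2. Every panel spans the same number of log2 units. For hypoxia-inducible genes FpB6D2 (7.54) and OpB6D2 (7.82) are low and FpB6CBA (8.70) and NmB6D2 (8.54) are high, with R1 (8.01) between them. The same split is seen for the epithelial genes, with R1 at 6.62. For DNA methylation genes R1 (7.67) is lower than FpB6D2 (7.84).

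Single genes differed in where they placed FpB6D2. Pdk1 was lower in FpB6D2 than in OpB6D2 (-1.21 ± 0.05 SE, adjusted p = 2e-09 by limma), FpB6CBA (-2.50 ± 0.05) and R1 (-1.61 ± 0.05). Ndrg1 was far lower than in FpB6CBA (-3.57 ± 0.09), and lower by smaller amounts than in OpB6D2 (-0.81 ± 0.09, adjusted p = 5.1e-06 by limma) and R1 (-0.36 ± 0.09, adjusted p = 0.0027 by limma). Cldn7 averaged 5.85 in FpB6D2, 5.75 in OpB6D2, 9.32 in FpB6CBA and 6.18 in R1, so FpB6D2 and OpB6D2 did not differ beyond their error (0.11 ± 0.08, adjusted p = 0.28 by limma). Krt8 was higher in FpB6D2 than in OpB6D2 (1.49 ± 0.12), and lower than in FpB6CBA (-1.73 ± 0.12) and R1 (-1.83 ± 0.12).

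Pramel6 and Pramel7 were higher in FpB6D2 than in OpB6D2 (2.61 ± 0.12 and 2.28 ± 0.11), where Pramel6 averaged 5.76 and Pramel7 5.46, and both were below the filter value in FpB6CBA and R1. Msc was higher in FpB6D2 than in OpB6D2 (3.19 ± 0.12), FpB6CBA (4.28 ± 0.12) and R1 (1.62 ± 0.12). Lin28a was lower in FpB6D2 than in OpB6D2 (-2.47 ± 0.10), FpB6CBA (-1.39 ± 0.10) and R1 (-3.22 ± 0.10). For Sfmbt2 the differences were -1.29 ± 0.12, -2.13 ± 0.12 and -1.13 ± 0.12 in the same order of lines.

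Igf2 averaged 5.89 in FpB6D2, 6.09 in OpB6D2, 7.06 in FpB6CBA, 11.34 in R1 and 9.73 in NmB6D2, and FpB6D2 did not differ from OpB6D2 beyond its error (-0.20 ± 0.16, adjusted p = 0.31 by limma). Ndn was as high in R1 (8.77), a fertilised line, as in FpB6D2 (8.76), with a difference of -0.01 ± 0.08. Grb10 was lower in FpB6D2 than in OpB6D2 (-0.64 ± 0.08), FpB6CBA (-0.84 ± 0.08) and R1 (-2.07 ± 0.08). Dnmt3a stood at 7.91 in FpB6D2, 9.01 in OpB6D2, 7.45 in FpB6CBA, 6.26 in R1 and 9.04 in NmB6D2. Elf5 was near background in FpB6D2 (3.40), OpB6D2 (3.04), FpB6CBA (3.69) and R1 (2.88), and above it in NmB6D2 (6.95).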

How the data were processed

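Gene expression was measured in 5 ES cell lines on 15 arrays, and 6 arrays were compared. The deposited values are log2 intensities, made with RMA and the affy package per the submitters' processing notes, which give no versions. No label names the log base, and the range of 1.99 to 13.96 points to log2. Of 45101 probe sets, 34945 carried 1 gene symbol, 932 several and 9160 none in the array's annotation, and 64 were controls. Symbols, chromosomes and promoters came from RefSeq (GRCm38.p6). Each of 18193 genes was read from its probe set of highest mean. The filter kept 12813 and removed 5380.

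All 15 arrays entered a linear model with a mean per line (limma 3.58.1 in R 4.3.3). Benjamini-Hochberg adjustment ran over all genes tested, and a call needed an adjusted p under 0.05 and 2-fold. Where a line's mean lay below 3.864, that value took its place and the fold is "at least". "Averaged" means the mean of all probe sets of a gene, those below the filter included, where it ended a call or moved a value by more than 1.5 times. Values after ± are SE of the fit unless SD is named. On simulated data of 12813 genes, 96% of 100 genes with a change of 1.2 log2 units and 100% of 100 with a change of 2 were found for this comparison, with 0 unchanged genes called. The noise was drawn from the spread between arrays of a line, and the changes exceeded the 2-fold minimum. Spread between cultures or derivations was not simulated, so these shares do not cover it.

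The comparison, the 48 gene lists (1568 entries, 1414 matched to the array) and the named genes were chosen with earlier results of these data known, so counts in lists are descriptions, read beside all autosomal genes. From the imprinted lists, Ddc, Zfp64 and Slc39a4 were removed after their values were seen, because the expressed allele was uncertain. Ddc (2.14 ± 0.07) and Zfp64 (1.01 ± 0.09) were called higher in FpB6D2, so the counts of higher imprinted genes depend on this removal. Genes named are the 20 largest rises and falls among called autosomal genes with proper symbols, called list members, and up to 4 uncalled members per list with the highest mean, with all measured imprinted, core pluripotency and Y-linked genes. Not every gene so chosen is printed. In all, 1154 autosomal genes in lists were tested, and 102 were in more than 1 list. The 22 alternatives covered the filter, the choice or averaging of probe sets, centring, quantile normalisation, the arrays fitted, variance models, array weights, a replicate block, thresholds and leaving out each array. The number of arrays limits the precision. Plots used matplotlib 3.10.9.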

Additional observations from a re-analysis of the deposited data

Results flagged for a closer look

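Of 1956 tested probe sets with no gene symbol, 127 (6.49%) were called between FpB6D2 and NmB6D2, 59 higher and 68 lower in FpB6D2, a smaller share than the 10.2% of autosomal genes. Of 608 probe sets with several symbols, 48 were higher and 14 lower (10.2%). The 18 probe sets of hybridisation controls, which detect RNA added before hybridisation, averaged 10.02 to 10.11 on the FpB6D2 arrays and 9.46 to 9.73 on the NmB6D2 arrays, a difference of 0.48 on the log2 scale. The 27 probe sets of poly-A controls, added to the RNA before labelling, averaged 7.72 to 7.81 on the FpB6D2 arrays and 7.30 to 7.46 on the NmB6D2 arrays, a difference of 0.38. Their part in the gene differences was not tested. The signal of the 3′ minus that of the 5′ probe set of actin, a sign of RNA length, was 0.63 in FpB6D2 and 0.51 in NmB6D2, and that of Gapdh was -0.05 in FpB6D2 and 0.07 in NmB6D2, a difference of the same size the other way.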

How the results depend on the processing

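The count of called autosomal genes was 1257 and stayed within 1.5 times of that under 19 of the 22 alternatives. Testing each probe set on its own gave 2137 calls, 1294 of them lower. Dropping the fold minimum gave 7402, with 3756 higher and 3646 lower, and requiring a difference significantly above 2-fold (treat) gave 615, with 289 higher and 326 lower. Averaging all probe sets of a gene gave 876. Leaving out each array in turn gave 1236 to 1266 calls, 561 to 575 higher and 661 to 702 lower. Median centring gave 599 higher and 656 lower genes, and quantile normalisation 584 and 659. Of 231 called genes that the naming rule chose, 132 kept the call under every alternative that tested them. Averaging probe sets ended 59 calls and treat 73. The genes whose calls ended are given beside their values only where averaging, the choice of probe set or a left-out array did so. Dppa2 reversed, from 0.43 to -2.72 with probe sets averaged and to -5.87 without shared probe sets. The cause was not tested.

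Array titles give FpB6D2 the replicate numbers 1 to 3 and NmB6D2 the numbers 2 to 4. Deviations from the line means correlated at -0.041 and -0.071 for arrays with the same number, and at -0.016 to 0.054 for the others. With so few arrays these values cannot show whether the numbers pair the arrays, and the labels do not say. A fit with the replicate number as a block called 1270 genes, 561 higher and 709 lower. Intensities near background limit what can be said of 74 higher genes whose NmB6D2 mean, and 51 lower genes whose FpB6D2 mean, lay below the filter value.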

Other observations

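Probe sets of the same gene did not always give the same result. Of 5472 autosomal genes with 2 or more probe sets above the filter, 9 had 1 probe set called higher and another called lower in FpB6D2, and 5 had probe sets whose differences were 4 log2 units or more apart. For Dppa2, a chromatin-associated pluripotency factor, the less bright probe set had 4.36, 4.37 and 4.40 in FpB6D2, against 10.28, 10.23 and 10.22 in NmB6D2, while the brightest had 10.74, 10.67 and 10.84 in FpB6D2 and 10.34, 10.28 and 10.35 in NmB6D2. The less bright probe set averaged 10.89 in OpB6D2, 9.95 in FpB6CBA and 8.87 in R1, so it was low in FpB6D2 and in none of the other lines.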
